A study of Xenopus tropicalis with 6 samples.

Results

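Genes of the contractile apparatus and of muscle metabolism were followed in brains of *Xenopus tropicalis* tadpoles at stage 46. They were taken from the tested gene models by symbol: troponins (*tnnc*, *tnni*, *tnnt*), myosin heavy and light chains (*myh*, *myl*), tropomyosins (*tpm*), alpha-actinins (*actn*), the *ocm4* oncomodulins and single muscle genes such as *ckm* and *actc1*. The rule found 35 genes among 15076 tested gene models, out of 34229 in the raw table. Of these, 24 were grouped as genes of striated muscle and 11 as tropomyosin, smooth muscle and non-muscle genes. The symbols *atp2a1*, *ttn*, *neb*, *des*, *myoz1* and *mb* were also in the rule but belonged to no tested gene model, and they were not analysed here.

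The *dyrk1a* CRISPR group was 3 libraries of brains from tadpoles injected on both sides at the 2 cell stage with CRISPR reagents against *dyrk1a*, which encodes a protein kinase. The control group was 3 libraries of brains from uninjected tadpoles of the same stage. Each library pooled 3 dissected brains, and the pools were made of different animals. The injected tadpoles were mosaics of the founder generation, and the brains pooled were the most mutagenized ones by genotyping of the carcass. Because controls were not injected, injection and mutation of *dyrk1a* cannot be told apart.

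Striated muscle shortens when myosin heads on thick filaments pull on thin filaments of actin, tropomyosin and troponin. Calcium released from the sarcoplasmic reticulum binds troponin C and frees the sites for myosin, and creatine kinase and glycolysis supply the ATP. Fast and slow fibres use different isoforms of myosin light chains and troponins, while all cells, neurons and glia included, build a cytoskeleton from non-muscle myosin II, tropomyosins and alpha-actinins. Neurons and glia themselves form no sarcomeres.

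Gene counts summed to 21564980 to 28100633 in the *dyrk1a* CRISPR libraries and to 9603583 to 35071943 in the control libraries. Levels are given in cpm, that is counts relative to the TMM-scaled total of a library, which are not corrected for gene length. They are set side by side between libraries, and levels of different genes are not on 1 scale. Brain markers were detected in all libraries, with 13 neuronal genes summing to 9453 to 10002 cpm in CRISPR brains, against 10888 to 11232 cpm in control brains. Transcripts of *dyrk1a* (gene33996) were at 16.8, 13.2 and 15.04 cpm in CRISPR brains, against 21.4, 10.8 and 14.8 cpm in control brains (log2 fold change -0.07, edgeR adjusted p = 0.936). A small insertion or deletion need not change a transcript count, so these levels do not measure mutagenesis. The paper reports that reads beside the guide target in the *dyrk1a* exon were depleted in every injected replicate and in no control. Control replicate 2 stood apart for the striated muscle genes. It was more than 2 times as high as both other controls for 10 of the 24 striated genes and for 0 of the other 11 genes, against 64 of all 15076 genes tested (0.425%).

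Transcripts of fast skeletal muscle were lower in *dyrk1a* CRISPR brains, while genes of slow or cardiac muscle overlapped between the 2 groups. A few of the tropomyosin, smooth muscle and non-muscle genes were higher. Among the 24 striated genes, 11 were lower in CRISPR brains and 0 higher at an unadjusted edgeR p under 0.05, a threshold that 6.14% of all tested genes met in the lower direction. None passed the edgeR test after Benjamini-Hochberg adjustment over all genes, where 1 gene in 15076 (0.00663%) was called lower. DESeq2 called 8 of the 24 lower on the same counts, against 0.842% of the genes it tested. Of the 11, *mylpf*, *ocm4.1* and *casq1* were over 1 cpm in all 3 controls but in only 2 CRISPR libraries. These genes were tested only because of the controls, and *mylpf* and *ocm4.1* are also among the 8 that DESeq2 called. In 10 of the 24 every CRISPR library lay below every control library, an order seen in 9.72% of all genes. The median log2 fold change of the 24 genes was -0.85, beside 0.01 over all genes tested. It was -0.60 without control replicate 2. In bulk RNA, fewer muscle cells in a sample and less RNA per muscle cell cannot be told apart.

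The fast skeletal genes were the class with the lowest median log2 fold change, -2.16, with 6 of 7 at an unadjusted edgeR p under 0.05 and 5 of 7 called lower by DESeq2. *mylpf* (gene3233), the phosphorylatable light chain of fast skeletal myosin, had 2.0, 1.18 and 0.799 cpm in CRISPR brains, in the order of the replicate numbers, against 7.05, 14.8 and 4.66 cpm in control brains in the same order. All 3 CRISPR libraries lay below all 3 controls, and the spread among controls was wide. The means were 1.33 ± 0.613 cpm in CRISPR brains, against 8.84 ± 5.31 cpm in control brains (SD, n = 3 each), and the log2 fold change was -2.73 (standard error 0.46, edgeR adjusted p = 0.0931, DESeq2 adjusted p = 7.24e-07). *mylpf* was counted on only 57, 27 and 17 reads in the CRISPR libraries, against 242, 356 and 44 reads in the control libraries. It was tested only because of the controls.

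*myl1* (gene2468), the alkali light chain of fast skeletal myosin, was at 3.61, 2.62 and 2.11 cpm in CRISPR brains, against 7.6, 21.9 and 9.21 cpm in control brains. Its log2 fold change was -2.21 (standard error 0.40, edgeR adjusted p = 0.0931, DESeq2 adjusted p = 6.16e-06). As for *mylpf*, the groups did not overlap and control replicate 2 was the highest library.

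The subunits of the fast troponin complex, which switches the thin filament on with calcium, had lower values in all 3 CRISPR libraries than in any control. Troponin T, which binds tropomyosin, is encoded by *tnnt3* (gene6459), at 2.56, 2.01 and 1.79 cpm in CRISPR brains, against 5.01, 15.9 and 7.51 cpm in control brains (log2 fold change -2.16, standard error 0.41, edgeR adjusted p = 0.0977, DESeq2 adjusted p = 3.68e-05). The inhibitory subunit gene *tnni2* (gene311) was at 2.10, 1.09 and 1.08 cpm in CRISPR brains, against 4.98, 13.4 and 4.02 cpm in control brains (log2 fold change -2.39, standard error 0.48, edgeR adjusted p = 0.102, DESeq2 adjusted p = 0.000111). The groups did not overlap for either gene, and *tnni2* and *tnnt3* have 2 genes between them on the RefSeq assembly UCB_Xtro_10.0. The calcium-binding subunit gene *tnnc2* (gene33854) was at 2.66, 2.53 and 3.62 cpm in CRISPR brains, against 5.59, 14.6 and 4.87 cpm in control brains. Its log2 fold change was -1.53 (standard error 0.40, edgeR adjusted p = 0.17, DESeq2 adjusted p = 0.0125).

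*actn3* (gene5709), the alpha-actinin of the Z-disc of fast fibres, was at 1.47, 1.22 and 1.32 cpm in CRISPR brains, against 1.83, 4.66 and 2.22 cpm in control brains. Controls 1 and 3 lay only slightly above the CRISPR libraries. The log2 fold change of -1.13 (standard error 0.40) was called neither by edgeR (adjusted p = 0.301) nor by DESeq2 (adjusted p = 0.222). The myosin heavy chain gene *myh2*, a fast isoform in mammals, overlapped between the groups (1.47 to 1.69 cpm in CRISPR brains, against 1.46 to 2.12 cpm in control brains, log2 fold change -0.16, edgeR adjusted p = 0.873).

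**Figure D1:**
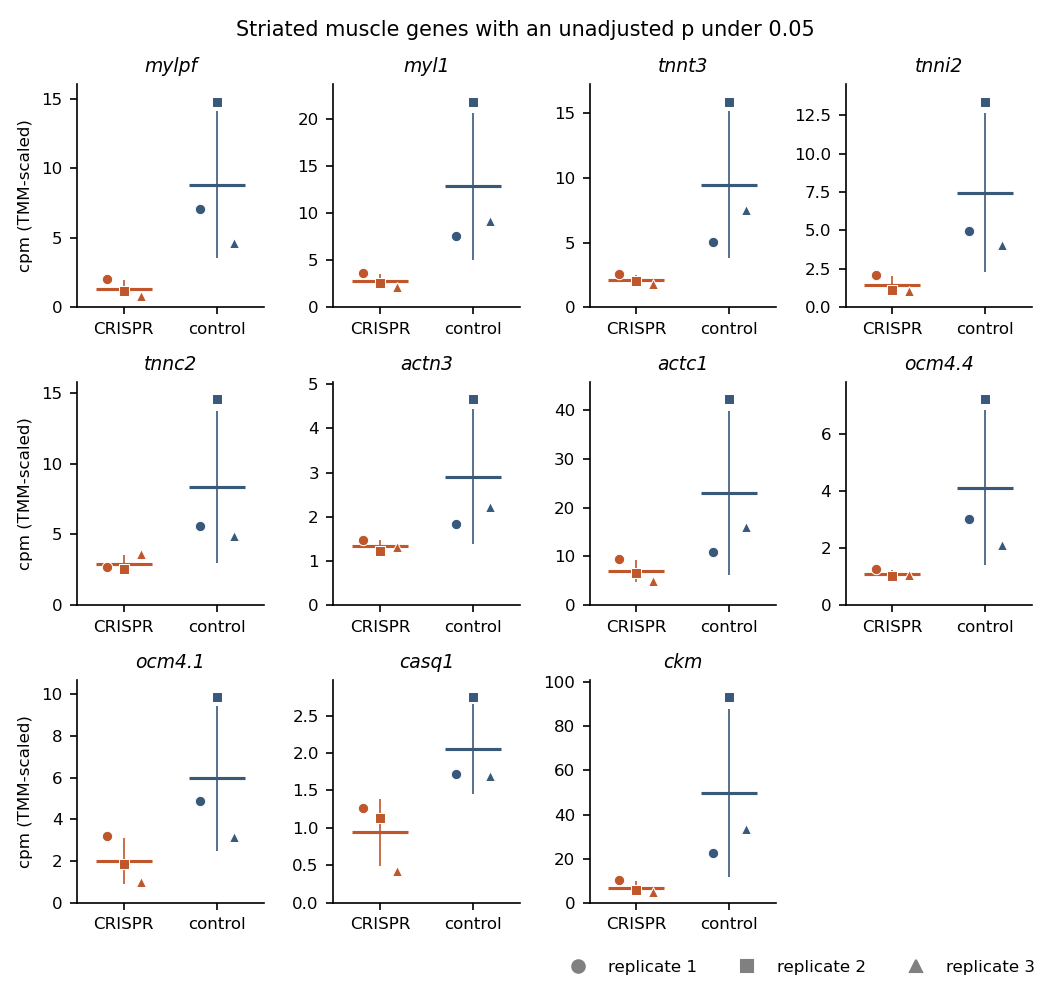
Levels of the 11 striated muscle genes with an unadjusted edgeR p under 0.05, in TMM-scaled cpm on an axis from 0, in 3 *dyrk1a* CRISPR libraries (left of each panel) and 3 control libraries (right). Horizontal bars are means, vertical lines are 1 SD and marker shapes give the replicate number. Control replicate 2 is the highest library in all 11 panels, and the groups overlap only for *ocm4.1*.

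*ckm* (gene412), the muscle creatine kinase that regenerates ATP from phosphocreatine, had the lowest log2 fold change of the 35 genes. It was at 10.4, 5.72 and 4.70 cpm in CRISPR brains, against 22.5, 93.1 and 33.5 cpm in control brains. Every CRISPR library was below every control, and control replicate 2 alone was more than 2 times as high as either other control. The log2 fold change was -2.83 (standard error 0.50, edgeR adjusted p = 0.0931, DESeq2 adjusted p = 0.00506). It was -2.0 without control replicate 2, where DESeq2 gave an adjusted p of 1.18e-06.

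Both other metabolic genes overlapped between the groups. *pygm*, the muscle glycogen phosphorylase, which in mammals is also made by astrocytes, was at 640, 739 and 637 cpm in CRISPR brains, against 666, 817 and 738 cpm in control brains. *pgam2*, a phosphoglycerate mutase of glycolysis, was at 15.9, 16.2 and 21.2 cpm in CRISPR brains, against 15.7, 16.1 and 23.2 cpm in control brains. Their log2 fold changes were -0.14 (edgeR adjusted p = 0.592) and -0.03 (edgeR adjusted p = 0.971).

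Among sarcomeric actins, *actc1* (gene6206), the cardiac alpha-actin that *Xenopus* embryos also express in skeletal muscle, was at 9.47, 6.55 and 5.03 cpm in CRISPR brains, against 10.9, 42.2 and 16 cpm in control brains. CRISPR replicate 1 was close to control replicate 1, but the groups did not overlap. Its log2 fold change was -1.71 (standard error 0.45, edgeR adjusted p = 0.168, DESeq2 adjusted p = 0.149), and it was -0.92 without control replicate 2. DESeq2 called it lower without control replicate 1 (adjusted p = 7.06e-06) and in no other leave-one-out fit. *acta1*, the skeletal alpha-actin, lay near the limit of the filter, at 0.526, 0.393 and 1.03 cpm in CRISPR brains, against 1.43, 0.998 and 0.317 cpm in control brains. The groups overlapped (log2 fold change -0.63, edgeR adjusted p = 0.665), and reads shared by these near-identical actins could be split between them in an unknown way.

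The genes of calcium handling were divided. The oncomodulins are calcium-binding proteins of the parvalbumin family, which speeds relaxation of fast fibres, and *ocm4.4* and *ocm4.3* lie side by side with 0 genes between them on UCB_Xtro_10.0. *ocm4.4* (gene1347) was at 1.26, 1.005 and 1.03 cpm in CRISPR brains, against 3.00, 7.20 and 2.12 cpm in control brains (log2 fold change -1.92, standard error 0.45, edgeR adjusted p = 0.127, DESeq2 adjusted p = 0.0071). *ocm4.1* (gene3657) was at 3.19, 1.88 and 0.987 cpm in CRISPR brains, against 4.86, 9.86 and 3.17 cpm in control brains (log2 fold change -1.57, standard error 0.48, edgeR adjusted p = 0.23, DESeq2 adjusted p = 0.0434). For *ocm4.4* the groups did not overlap, whereas for *ocm4.1* CRISPR replicate 1 was just above control replicate 3. *ocm4.3* ranged from 0.612 to 1.65 cpm in CRISPR brains, against a range from 1.06 to 3.74 cpm in control brains, with a log2 fold change of -1.07 and an edgeR adjusted p of 0.401. These paralogs may share reads, so their single values are uncertain.

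Calsequestrin stores calcium in the sarcoplasmic reticulum and the ryanodine receptor releases it. *casq1* was at 1.26, 1.14 and 0.423 cpm in CRISPR brains, against 1.72, 2.75 and 1.69 cpm in control brains, with no overlap. Its log2 fold change was -1.12 (standard error 0.44, edgeR adjusted p = 0.34, DESeq2 adjusted p = 0.319). *ryr1* was at 2.7, 2.53 and 1.93 cpm in CRISPR brains, against 2.62, 2.16 and 2.22 cpm in control brains, and the groups overlapped (log2 fold change 0.03, edgeR adjusted p = 0.985).

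Of the 4 genes of slow or cardiac sarcomeres, 0 had an unadjusted edgeR p under 0.05. *tnnc1*, the slow and cardiac troponin C, was at 4.84, 2.27 and 3.52 cpm in CRISPR brains, against 3.79, 2.58 and 5.40 cpm in control brains. *myh6*, a cardiac myosin heavy chain, was at 2.24, 2.66 and 1.83 cpm in CRISPR brains, against 2.48, 2.66 and 5.08 cpm in control brains. *myl3*, a light chain of slow and ventricular muscle, was at 2.17, 2.93 and 1.97 cpm in CRISPR brains, against 3.47, 2.75 and 2.33 cpm in control brains. All overlapped between the groups, as did the atrial and embryonic light chain gene *myl4*, and control replicate 2 was the highest library for 0 of the 4. Their log2 fold changes ran from -0.55 for *myh6* to -0.03 for *myl4*.

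The muscle regulators did not separate the groups. *smyd1*, a methyltransferase that acts in myosin folding, was at 1.05, 2.05 and 1.41 cpm in CRISPR brains, against 1.25, 0.250 and 1.38 cpm in control brains. Control replicate 2, the highest library for 6 of the 7 fast skeletal genes, was the lowest here, on 6 reads, and the log2 fold change of 0.70 (standard error 0.56, edgeR adjusted p = 0.628) was 0.20 without it. *mef2c*, a transcription factor of muscle and of neurons, was at 3.54, 3.49 and 2.21 cpm in CRISPR brains, against 3.38, 3.58 and 4.34 cpm in control brains (log2 fold change -0.27, edgeR adjusted p = 0.733). *trim63*, a ubiquitin ligase of muscle protein breakdown, was at 2.03, 1.14 and 1.88 cpm in CRISPR brains, against 1.34, 2.20 and 1.90 cpm in control brains (log2 fold change -0.09, edgeR adjusted p = 0.946). For *mef2c* and *trim63* the groups overlapped too.

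**Figure D2:**
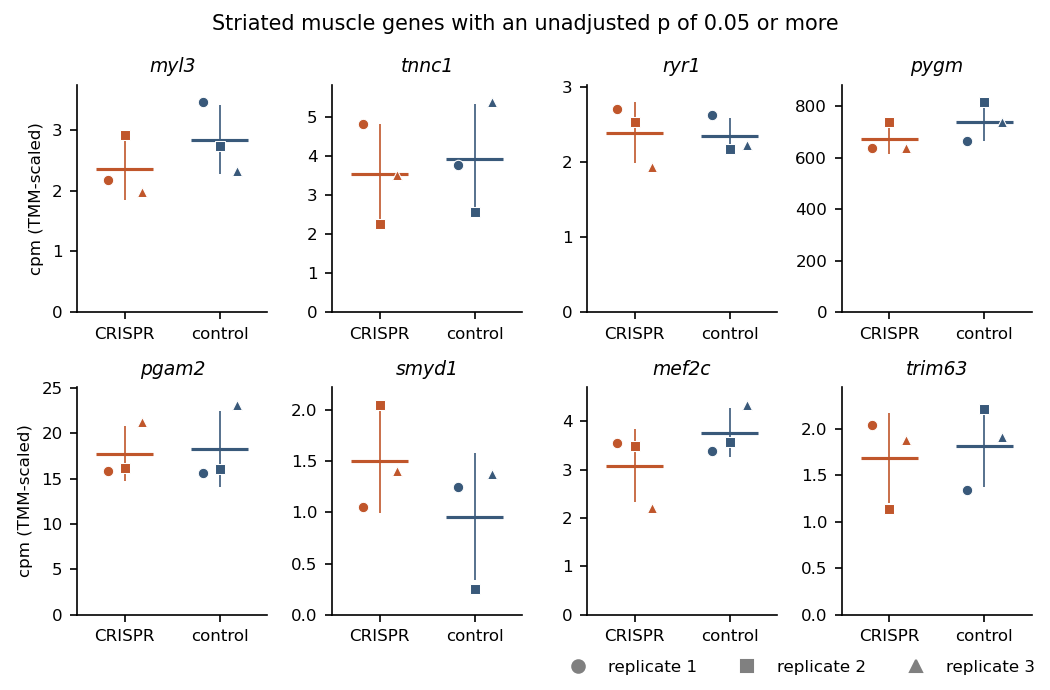
Levels of 8 of the 13 striated muscle genes with an unadjusted edgeR p of 0.05 or more, drawn in the same way as those with a smaller p. CRISPR and control libraries overlap in every panel, and for *smyd1* control replicate 2 is the lowest library.

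The lower muscle transcripts varied together among control libraries. Control replicate 2 was the highest of the 6 libraries for all 11 striated genes with an unadjusted edgeR p under 0.05. Genes chosen for lower levels in CRISPR brains mostly have a control as their highest library, and it was control replicate 2 for 37.5% of all genes lower at that threshold. Its level divided by the mean of controls 1 and 3 ran from 1.61 to 3.33 with a median of 2.60 for these 11 genes, and from 0.190 to 2.54 with a median of 0.948 for the other 13 striated genes. Within the CRISPR group replicate 1 was the highest for 10 of the 11, and how often it was so over all genes was not counted. Summed over the 22 striated genes other than *pygm* and *pgam2*, muscle transcripts came to 63.6, 48.1 and 42.6 cpm in CRISPR brains, against 99.2, 264.5 and 116.8 cpm in control brains. The 7 fast skeletal genes summed to 15.9, 12.2 and 12.4 cpm in CRISPR brains, against 33.5, 87.0 and 34.6 cpm in control brains, so controls 1 and 3 were alike and each above every CRISPR library.

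Without control replicate 2, 8 of the 24 striated genes were lower and 0 higher at an unadjusted edgeR p under 0.05, a threshold that 4.19% of all genes then met in the lower direction. The 3 that no longer met it were *actn3*, *casq1* and *ocm4.1*. DESeq2 then called 4 lower (*ckm*, *mylpf*, *myl1* and *tnnt3*), against 0.272% of all genes. The log2 fold changes of the 11 genes ran from -2.15 to -0.58 without this library and from -2.83 to -1.12 with it. With DESeq2, *mylpf*, *myl1* and *tnnt3* were called whichever of the 6 libraries was left out. The share of all genes called by DESeq2 was not counted in the other leave-one-out fits. *tnni2* was lost without control replicate 2 (adjusted p = 0.0615), and *ckm* was lost without CRISPR replicate 2 (adjusted p = 0.0635) or 3 (adjusted p = 0.0912). *tnnc2*, *ocm4.4* and *ocm4.1* were each lost without control replicate 2 at adjusted p of 0.457 to 0.613 from DESeq2, and *tnnc2* and *ocm4.1* also without other libraries. Without control replicate 1 DESeq2 gave *ocm4.4* no adjusted p.

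**Figure D3:**
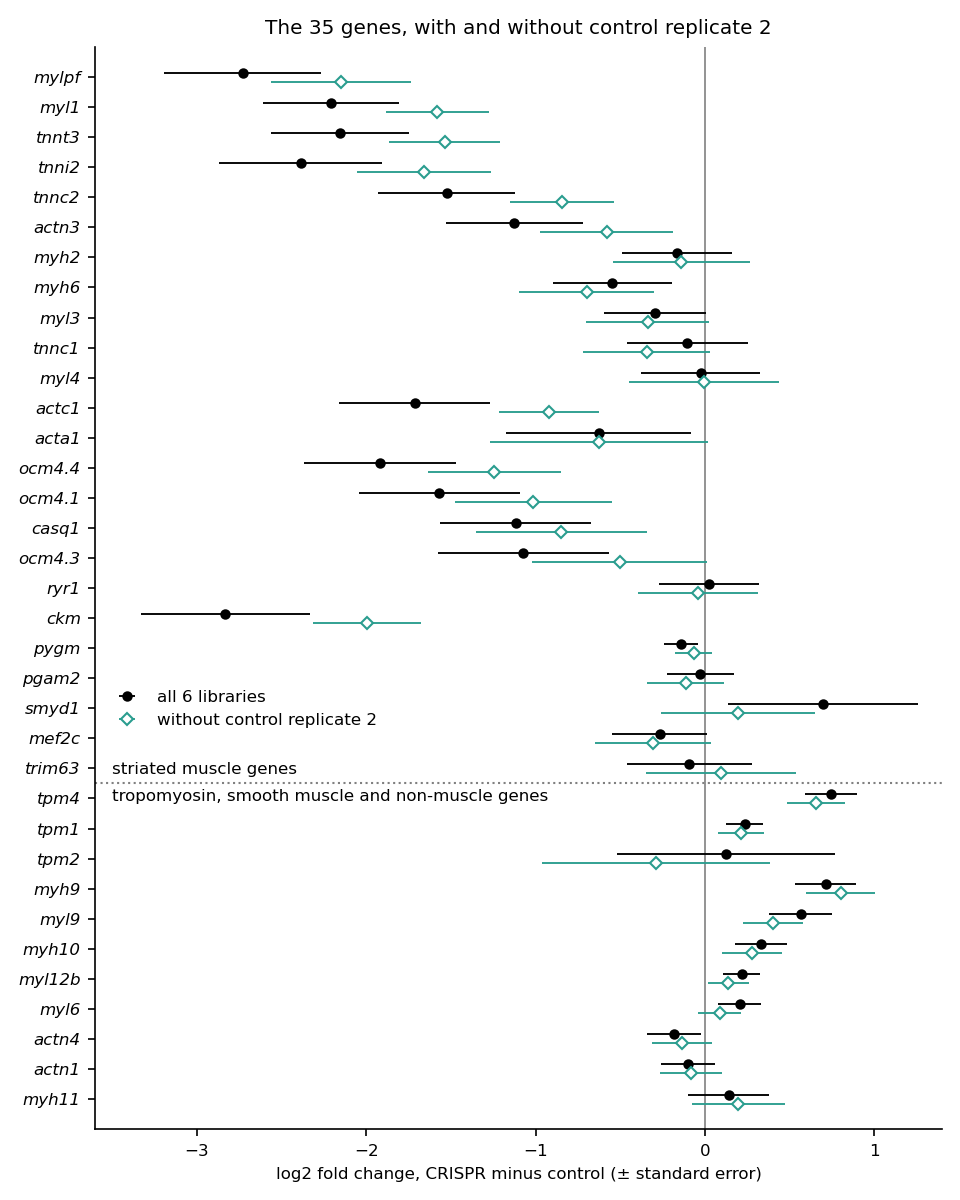
Log2 fold changes (*dyrk1a* CRISPR minus control, edgeR, with standard errors) of all 35 genes with all 6 libraries (filled circles) and without control replicate 2 (open diamonds). The fast skeletal genes apart from *myh2*, the oncomodulins, *actc1*, *casq1* and *ckm* lie to the left of -1 with all libraries and move toward 0 without control replicate 2, while *tpm4*, *myh9* and *myl9* lie to the right of 0 in both.

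The low levels of the muscle genes bear on which of them could be seen. Of the 35 genes, 28 were over 1 cpm in all 6 libraries before TMM scaling. *mylpf*, *ocm4.1*, *casq1* and *ocm4.3* were over 1 cpm in all 3 controls but in fewer than 3 CRISPR libraries, so they were tested only because of the controls, and 3 of them are among the 11 lower genes. *smyd1* was over 1 cpm in all 3 CRISPR libraries but in fewer than 3 controls. *acta1* and *tpm2* were over 1 cpm in fewer than 3 libraries of either group.

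The tropomyosin, smooth muscle and non-muscle genes did not share the lower levels. Of 11 genes, 3 were higher and 0 lower in CRISPR brains at an unadjusted edgeR p under 0.05, where 6.79% of all genes were higher. DESeq2 called 2 of them higher, against 1.19% of the genes it tested, and edgeR called 0 after adjustment, as it called 0 of all 15076 genes higher (0%). All CRISPR libraries lay above all controls for the same 3 genes, an order seen in 9.13% of all genes. The median log2 fold change of the 11 was 0.22. Without control replicate 2, the same 3 genes were higher at an unadjusted edgeR p under 0.05 (4.66% of all genes) and DESeq2 called 2 of them higher (0.577% of all genes).

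*tpm4* (gene30443), a tropomyosin gene whose isoforms were not told apart, was at 149.8, 99.7 and 137 cpm in CRISPR brains, against 81.8, 67.8 and 81.2 cpm in control brains. The groups did not overlap. The means were 129 ± 26.0 cpm in CRISPR brains, against 76.9 ± 7.90 cpm in control brains (SD, n = 3 each), and the log2 fold change was 0.74 (standard error 0.15, edgeR adjusted p = 0.104, DESeq2 adjusted p = 0.00183). The DESeq2 call was lost without CRISPR replicate 1 (DESeq2 adjusted p = 0.066) and kept without each of the other 5 libraries. *tpm1*, whose exons serve both muscle and non-muscle tropomyosins, was at 96.5, 80.2 and 96.6 cpm in CRISPR brains, against 80.8, 75.7 and 75.7 cpm in control brains (log2 fold change 0.23, edgeR adjusted p = 0.402). CRISPR replicate 2 lay within the range of the controls. *tpm2* was at 1.44, 0.699 and 1.27 cpm in CRISPR brains, against 0.524, 0.499 and 2.65 cpm in control brains (log2 fold change 0.12, edgeR adjusted p = 0.959).

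Non-muscle myosin II drives cell shape change and the cleavage of dividing cells. *myh9* (gene18299), its heavy chain A, was at 56.8, 43.8 and 35.1 cpm in CRISPR brains, against 25.9, 31.0 and 25.8 cpm in control brains. CRISPR replicate 1 was the highest, and the groups did not overlap. The log2 fold change was 0.71 (standard error 0.18, edgeR adjusted p = 0.154, DESeq2 adjusted p = 0.0152). The DESeq2 call was lost without CRISPR replicate 1 (adjusted p = 0.217) or control replicate 3 (adjusted p = 0.166). The regulatory light chain gene *myl9* (gene4480), of smooth muscle and non-muscle myosin, was at 76.4, 55.3 and 53.1 cpm in CRISPR brains, against 46.4, 32.2 and 46.7 cpm in control brains. The groups did not overlap, but the log2 fold change of 0.56 (standard error 0.18) was called neither by edgeR (adjusted p = 0.262) nor by DESeq2 (adjusted p = 0.106, and 0.0499 without control replicate 1).

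The other genes of this kind overlapped between the groups. The essential light chain gene *myl6* was at 880, 803 and 994 cpm in CRISPR brains, against 904, 647 and 772 cpm in control brains (log2 fold change 0.21, edgeR adjusted p = 0.521). The regulatory light chain gene *myl12b* was at 504, 471 and 580 cpm in CRISPR brains, against 484, 399 and 456 cpm in control brains (log2 fold change 0.22, edgeR adjusted p = 0.428). *myh10*, the heavy chain B of non-muscle myosin II and the main one of neurons in mammals, had a log2 fold change of 0.33 (edgeR adjusted p = 0.401). The alpha-actinin gene *actn4*, which crosslinks actin outside sarcomeres, was at 128, 132 and 87.8 cpm in CRISPR brains, against 113, 141 and 141 cpm in control brains (log2 fold change -0.18, edgeR adjusted p = 0.659). Its relative *actn1* had a log2 fold change of -0.10 and the smooth muscle heavy chain gene *myh11* one of 0.14.

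**Figure D4:**
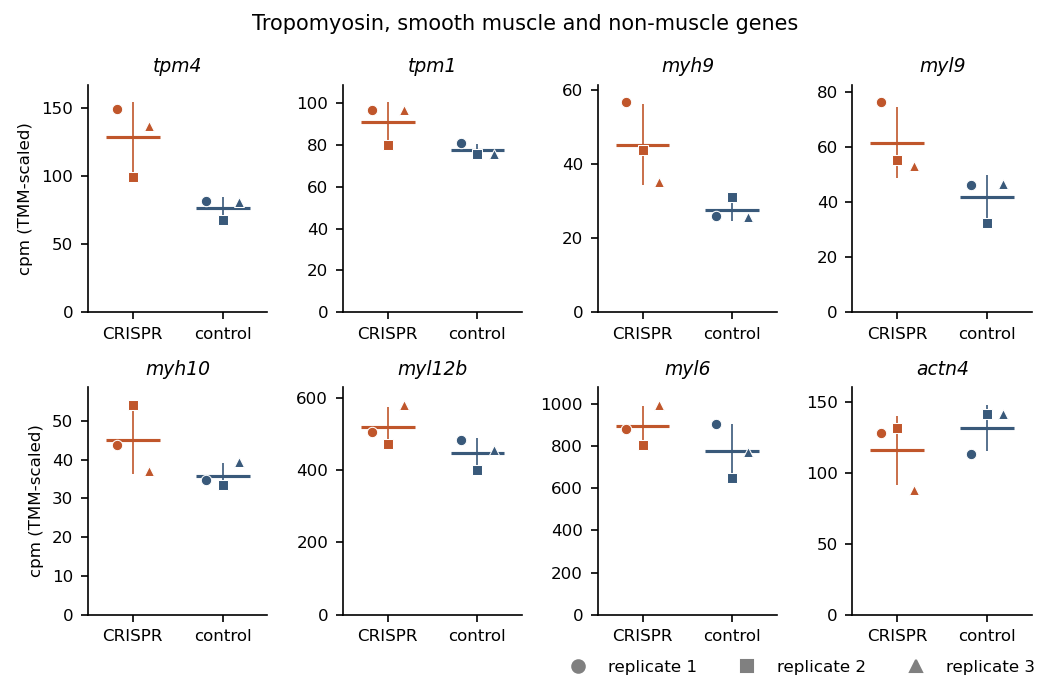
Levels of 8 of the 11 tropomyosin, smooth muscle and non-muscle genes in TMM-scaled cpm on an axis from 0, with *dyrk1a* CRISPR libraries left of control libraries, means as bars and 1 SD as lines. For *tpm4*, *myh9* and *myl9* all 3 CRISPR libraries lie above all 3 controls, and the other 5 overlap.

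Lists of further muscle genes, none of them among the 35, were counted at an unadjusted edgeR p under 0.05. Over the 6 lists 7 of 70 genes were lower (10%) and 1 higher (1.43%), against 6.14% lower and 6.79% higher over all genes. The lists also hold genes with high levels in these brains. For example, *ckb* had a mean of 1141 cpm in CRISPR brains, against 1125 cpm in control brains, and *atp2a2* had 227 and 245 cpm. These counts therefore do not stand for muscle cells alone, and which cells made the transcripts was not tested. Of 12 tested genes of excitation-contraction coupling 0 were lower and 0 higher, and of 11 myogenic transcription factors and cofactors 0 were lower and 0 higher, while *myod1*, *myf5*, *myf6* and *myog* were not among the tested genes. Of 15 genes of the Z-disc, M-band and thin filament 2 were lower, the myosin-binding protein gene *mybph* (2.14 to 4.51 cpm in CRISPR brains, against 5.93 to 7.70 cpm in control brains, log2 fold change -0.90) and the M-band gene *myom2* (log2 fold change -0.94), and 1 was higher, the Z-disc gene *mypn* (log2 fold change 0.97). *mypn* was over 1 cpm in all 3 CRISPR libraries and in 0 controls, and *myom2* in 2 CRISPR libraries and all 3 controls, so each was tested only because of the group in which it was higher. Of 16 genes of muscle energy metabolism 1 was lower, the glycolytic gene *pgk1* (log2 fold change -0.22), and of 9 genes of the sarcolemma and ubiquitin ligases 2 were lower, *sgcb* and *fbxo32* (log2 fold changes -0.33 and -0.21). The 9 genes summed to 524 to 565 cpm in CRISPR brains, against 628 to 681 cpm in control brains, with no overlap, while their median log2 fold change was 0.03. Of 7 genes of the neuromuscular junction 2 were lower, *colq* and *ache*, the anchor and the catalytic subunit of acetylcholinesterase, which neurons also express (log2 fold changes -0.34 and -0.53). The adjusted p of all these genes was above 0.05 with edgeR and with DESeq2 where it gave one.

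Markers of other tissues that a dissection could carry were read beside the muscle genes. Of 26 listed trunk Hox genes only 4 were tested, *hoxc6*, *hoxc5*, *hoxa5* and *hoxb5*, and those of higher group numbers were not among them. All 4 were lower at an unadjusted edgeR p under 0.05, against 6.14% of all genes. They summed to 23.8, 15.9 and 14.6 cpm in CRISPR brains, against 38.4, 44.0 and 34.0 cpm in control brains. *hoxc6* and *hoxc5* had log2 fold changes of -3.07 and -1.11, and DESeq2 called both lower. *hoxc6* was over 1 cpm in 0 CRISPR libraries and in all 3 controls, so it was tested only because of the controls. The Hox sums did not overlap between the groups. Control replicate 2 was the highest library for 3 of these 4 genes, against 37.5% of all genes lower at that threshold. At the same threshold neuronal genes were lower for 5 of 13 and higher for 1, against 6.14% and 6.79% of all genes, and their sums did not overlap either. Whether the Hox transcripts came from trunk tissue or from the brain was not tested. The part of trunk tissue in the lower muscle transcripts was not tested either.

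Some markers were higher, as were *tpm4*, *myh9* and *myl9*, and the same shares of all genes, 6.79% higher and 6.14% lower, apply to each count. Meningeal and mesenchymal genes were higher for 4 of 10 and lower for 0. The higher ones were led by the collagen gene *col1a1* and the transcription factor gene *foxc1* (log2 fold changes 0.95 and 1.08). Over the 10 genes 8 log2 fold changes were positive and 2 negative, those of *lum* and *dcn* (-0.84 and -0.50). The 10 genes summed to 145 to 181 cpm in CRISPR brains, against 102 to 131 cpm in control brains. Of 4 epidermal genes 1 was higher, the keratin gene *krt19* (log2 fold change 0.91), and they summed to 117 to 185 cpm in CRISPR brains, against 71.2 to 88.5 cpm in control brains. Of 12 genes of progenitors and glia 4 were higher and 2 lower, and they summed to 4801 to 5370 cpm in CRISPR brains, against 4022 to 4729 cpm in control brains. Of 8 genes of smooth muscle and pericytes 1 was higher, the receptor gene *pdgfrb* (log2 fold change 1.34, over 1 cpm in all 3 CRISPR libraries and in 2 controls), and 1 lower, *rgs5* (log2 fold change -0.35), and their sums overlapped, at 155 to 157 cpm in CRISPR brains, against 149.6 to 192 cpm in control brains. Of 2 heart genes 0 were lower or higher. Of 9 genes of cartilage and notochord 2 were lower, *acan* and *hapln1* (log2 fold changes -1.15 and -0.54), and 1 higher, the collagen gene *col2a1* (log2 fold change 1.23). *acan* was over 1 cpm in 0 CRISPR libraries and in all 3 controls, so it was tested only because of the controls. The 9 genes summed to 279 to 373 cpm in CRISPR brains, against 230 to 255 cpm in control brains. Of 7 erythrocyte genes and 7 endothelial genes 0 were lower or higher. Of 4 eye and lens genes 1 was higher, *cryaa* (log2 fold change 1.53). *cryaa* was over 1 cpm in all 3 CRISPR libraries and in 0 controls, so it was tested only because of the CRISPR libraries. The sums of these 3 lists overlapped between the groups. The meningeal, epidermal, progenitor and cartilage sums did not overlap between the groups, but each did without 1 gene, chosen after seeing the data as the one whose means differed most. The epidermal sum without *krt19* was 9.77 to 20.8 cpm in CRISPR brains, against 8.98 to 15.6 cpm in control brains, and the other 3 overlapped without *col1a1*, *fabp7* and *col2a1*. The part of these cells in the levels of *tpm4*, *myh9* and *myl9* was not tested.

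**Figure D5:**
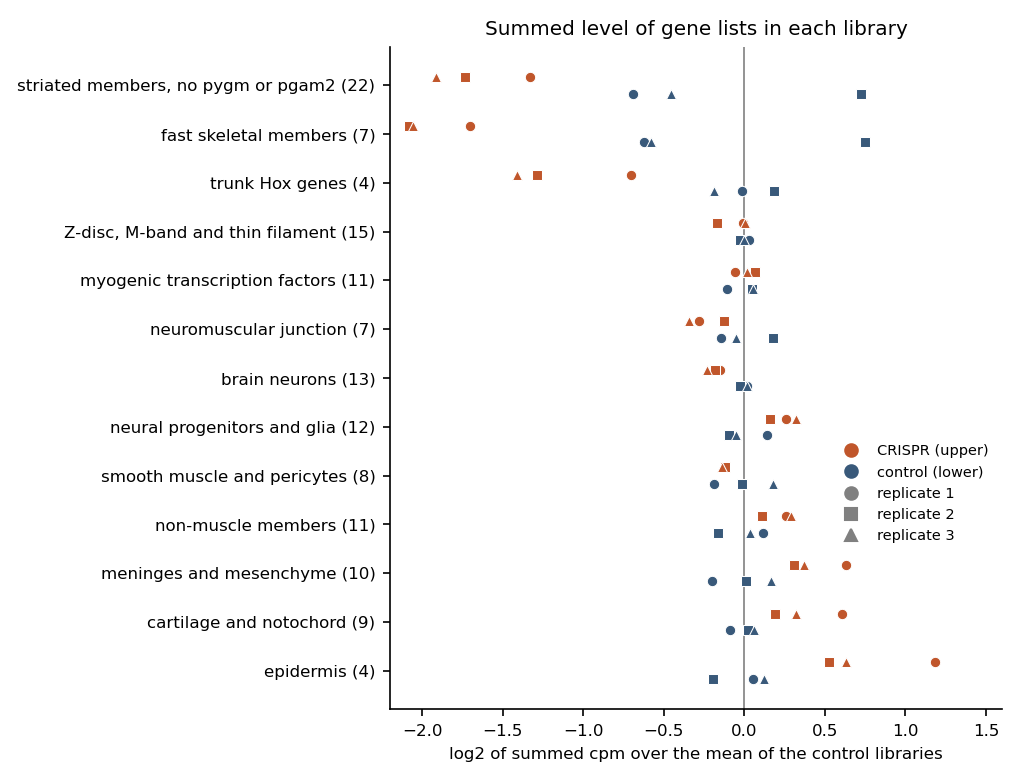
Summed TMM-scaled cpm of gene lists in each library, as log2 of the sum over the mean of the 3 control libraries (x axis), with *dyrk1a* CRISPR libraries in the upper and control libraries in the lower row of each list and the number of genes in parentheses. The striated list leaves out *pygm* and *pgam2*. The striated and fast skeletal sums of CRISPR libraries lie between -2.08 and -1.33 with control replicate 2 at 0.72 and 0.75, the trunk Hox sums between -1.41 and -0.71, and the myogenic transcription factors between -0.11 and 0.07 over all 6 libraries.

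Exon counts re-read the same libraries for genes already lower by gene count, so they show only where along a gene the reads lay. Among bins with at least 20 counts over the 6 libraries, all CRISPR libraries lay below all controls in 9 of 9 bins of *ckm*, 8 of 8 of *mylpf*, 10 of 10 of *myl1*, 7 of 7 of *casq1*, which has 13 bins in all, and 13 of 15 of *tnnt3*. The same order held for 8.02% of all such bins, whose genes were not chosen by their levels. It was seen in 5 of 9 bins of *tnni2*, 5 of 7 of *tnnc2*, 5 of 8 of *actc1*, 4 of 5 of *ocm4.4*, 2 of 5 of *ocm4.1* and 5 of 14 of *actn3*. For *myh2*, whose groups overlapped by gene count, it was seen in 5 of 10 bins and the opposite order in 1. All CRISPR libraries lay above all controls in 11 of 12 bins of *tpm4*, 3 of 4 of *myl9* and 14 of 41 of *myh9*, against 5.64% of all bins. Bins of a gene share reads and are not independent.

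The share of a gene's exon counts that fell in each bin was compared for the 14 genes with at least 200 exon counts in every library, using the 55 bins that held at least 5% of their gene's counts. The groups did not overlap in 6 of the 55 bins (10.9%), and in 9.72% of such bins over all genes, so the count over the 14 genes stood near the background. Of the 6, 2 lay among the 6 bins of *ckm*, 2 among the 5 of *actc1*, 1 among the 5 of *myl6* and 1 among the 7 of *tpm1*, a gene with muscle and non-muscle exons. A minor *tpm1* bin, the 14th, held 2.31, 1.44 and 1.41 cpm in CRISPR brains, against 2.27, 4.82 and 2.22 cpm in control brains, and was picked out after its values were seen. Its level overlapped between the groups, with control replicate 2 the highest, and no sequence was read, so whether it is a muscle exon was not tested. *tnnc1* and *mef2c* lie in exon models merged with overlapping genes, so their bins were left out of the comparison of shares.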

How the data were processed

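RNA-seq of 3 *dyrk1a* CRISPR and 3 uninjected control libraries was used, each from 3 pooled stage 46 brains, polyA-selected and unstranded, so overlapping genes cannot be separated. The authors aligned reads to the XenBase genome 9.1 with STAR 2.7.3 and deposited raw read counts by gene, and by exon bin from DEXSeq. Lines of the exon table that name no gene, 5.49% to 6.12% of its counts, were left out. A further deposited table holds log2 values, log2(cpm + 1), for genes over 1 cpm in at least 3 libraries, and this table pairs models with symbols.

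Raw counts of the 15076 genes past that filter were tested in R 4.3.3 with edgeR 4.0.16 (TMM, quasi-likelihood F test, no covariate, two-sided, Benjamini-Hochberg over all genes, threshold 0.05) and, as alternatives, with DESeq2 1.42.0 and limma 3.58.1. The edgeR test was also run on simulated counts with 200 changed genes. Their spread was set by mean level alone and no library was made to stand apart. That check therefore does not show how the test handles genes high in control replicate 2. The study itself used DESeq2. Log2 fold changes are CRISPR minus control. Their edgeR standard errors are the absolute log2 fold change divided by the square root of the F statistic. They were thus derived from the test and not fitted separately. Every member has its values or a count. The 1 gene that edgeR called lower is no member and is not reported here. Values by library were given for members with an unadjusted edgeR p under 0.05 or a DESeq2 call and for the 3 with the highest mean cpm in each class. The members, gene lists and rules were chosen with earlier results of these data known. The study's volcano plot of these libraries labels *mylpf*, *myl1*, *tnnt3*, *tnni2*, *ocm4.4* and *hoxc6*, although its text does not name them. The direction of these genes is therefore no independent support. All 35 symbols matched the RefSeq table of UCB_Xtro_10.0, which was used for gene order only. Replicate libraries differed by more than sampling noise (chi-square per degree of freedom of at least 7.16). The p-values set the difference between the groups against the spread between pools.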

Additional observations from a re-analysis of the deposited data

How the results depend on the processing

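Counts of called genes depended on the tool and the filter. At an adjusted p under 0.05, edgeR called 1 gene lower and 0 higher, DESeq2 122 lower and 173 higher, and edgeR without a filter 60 lower and 120 higher. Of the striated muscle genes 0 were called by edgeR, 8 by DESeq2 and 8 by edgeR without a filter, and of the tropomyosin, smooth muscle and non-muscle genes 0, 2 and 2 were called higher. RLE and upper-quartile factors, filterByExpr, limma-voom and the deposited log2 values with limma left the counts of called members as they were, while the median of the striated genes was -0.47 on the deposited log2 values, a scale that compresses low levels. Leaving out 1 library at a time, edgeR called 0 to 7 genes lower and 0 to 5 higher and 0 to 2 striated genes lower (*ckm* and *tnnt3* without control replicate 1, adjusted p = 0.0487 each). The median log2 fold change then ran from -1.07 to -0.60 for the striated genes and from 0.19 to 0.29 for the others. DESeq2 with 1 library left out, added after seeing the data, called 4 to 8 striated genes lower and 0 to 3 of the others higher. For these fits the share over all genes was counted only without control replicate 2, at 0.272% lower and 0.577% higher. The remaining counts therefore have no background to be read against. The log2 ratio of summed cpm was -0.31 over all 24 striated genes, where *pygm* made up most of the sum. It was -1.64 without *pygm* and *pgam2*, a setting also added later. The number of exon bin shares that separated the groups was 6 of 55, against 9.72% of such bins over all genes. It was 6 to 25 with 1 library left out. Leaving out a library can only keep or add such bins, and the share over all genes was not counted in those settings. These counts therefore do not show a change in the members.

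Among the 29 members followed through all settings, directions were not stable for 5 genes with fold changes near 0. *myh2*, *myl4*, *ocm4.3*, *myh10*, *myh11* and *actn1* were not followed in this way. *tpm2* (0.12) was -0.0082 with DESeq2 and ran from -0.29 to 1.15 with 1 library left out. In the same settings *ryr1* (0.03) ran from -0.081 to 0.16, *trim63* (-0.09) from -0.29 to 0.12, *tnnc1* (-0.10) from -0.41 to 0.15 and *pgam2* (-0.03) from -0.17 to 0.16, and *pgam2* was 0.031 with limma-voom. The cause of these shifts was not tested.

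With the replicate number as a block, edgeR called 1 gene lower and 2 higher, and no member changed its call. Deviations of same-numbered libraries correlated at -0.11, 0.20 and -0.04, so the numbers do not pair the libraries. Adding genes below the filter to the summed levels was not run, because symbols were paired only with genes past it. The 3 libraries a group, the wide spread of the controls and levels of a few cpm limit what these tests can call.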
